A study of Sparus aurata with 30 samples.

Results

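Transcripts of the proteasome, the protein-degrading machine of the cell, were followed in 3 tissues of the gilthead sea bream, Sparus aurata. Members were the genes whose symbol in the count files was a numbered psma, psmb, psmc, psmd, psme, psmf or psmg, with or without a final a or b, or pomp. This rule used no measured value and took 35 of the 25722 genes. It took 5 alpha and 3 beta subunits of the core ring, 6 ATPases and 11 non-ATPases of the regulatory particle, 4 activators, and 6 inhibitor or assembly genes. The non-ATPase class follows the psmd symbols. It also holds psmd5, psmd9 and psmd10, which help to build the particle and are not subunits of it. A further 11 proteasome genes carried only a LOC identifier in the files and were named by the RefSeq gene table of the same assembly. These 11 are outside the rule and are described apart, because they hold all the immune beta subunits that could be named here. Psmb4, psmb6 and psmb8 were not analysed here.

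The proteasome is the large protease that degrades proteins marked with ubiquitin. Its core is a barrel of stacked rings, with alpha subunits gating the entrance and beta subunits forming the inner rings that hold the cutting sites. The regulatory particle caps the barrel: its non-ATPase subunits bind ubiquitin chains and remove them, and its ATPases unfold the substrate. In mammals, interferon leads cells to swap the cutting subunits for immune ones (psmb8, psmb9 and psmb10) and to add the activator formed by psme1 and psme2, which changes the peptides offered to T cells by class I molecules.

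RNA was sequenced from 6 groups, each with 5 libraries. These were head kidney, where fish make blood and immune cells, under the SDY diet and under the control diet, intestine under SDY and control, and liver under SDY and control. SDY is brewer's spent dry yeast; it made up 30% of the test diet and took the place of fish meal (10%) and of plant protein (31.4%). Each library came from 1 of 5 specimens chosen at random. The labels do not say how specimens were spread over tanks or whether the tissues came from the same fish, and the p-values therefore cover variation among these specimens only.

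The rule leaves out head kidney control replicates 1 and 3, so that group had 3 libraries. Replicate 1 held 926 counts and 0 on the members. Replicate 3 held 81900 CPM of hepatocyte markers, against 6.68 to 72.2 in the 8 head kidney libraries used and 120000 to 158000 in control livers, all relative to plain library totals. The 28 libraries used held 9276705 to 20580440 counts each, and the 35 members took 0.102% to 0.642% of a library. The labelled tissues carried their markers: summed hepatocyte markers were at least 161000 CPM in liver and at most 46 CPM in head kidney, with 729 to 23000 CPM in intestine, and summed brush border markers were at least 2180 CPM in intestine and at most 1.30 CPM in head kidney. The hepatocyte sum of intestine rested on a single listed gene, apoa1b. Liver also carried 7540 to 42100 CPM of exocrine pancreas markers. CPM is the read count normalised to sequencing depth, here after TMM scaling of the 28 libraries together, a correction for differences in composition. The files give each gene's span with introns and no transcript length, so levels are compared between samples and not between genes.

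The members lie on 20 chromosomes of assembly fSpaAur1.1. Psmb9a (chromosome 3, positions 5753937 to 5757643) and psmb12 (chromosome 3, positions 5758642 to 5762068) are next to each other on the minus strand. Psmc3 (chromosome 4, positions 29832990 to 29834982) and psmb1 (chromosome 4, positions 29837038 to 29839425) are also neighbours and point towards each other. The spans of 8 members overlap a gene on the opposite strand, and per the file headers the counting set no strand option, so reads of such pairs cannot be told apart. The largest shares were 32.7% of the span of psme1 (with LOC115569665), 19.8% of psmd1 (with htr2b) and 13.6% of psmd8 (with LOC115595180).

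Within each tissue, most members were high or low in the same libraries. The lowest library was mostly a control in every tissue. The highest was mostly an SDY library in head kidney and liver, and mostly a control in intestine. In intestine, control replicate 4 was the highest library for 22 of 35 members and SDY replicate 4 for 10, while control replicate 2 was the lowest for 23 and control replicate 1 for 9. The highest library exceeded the lowest by a median of 3.45-fold across members in intestine (1.70 to 4.99), by 2.57-fold in liver (1.30 to 4.95) and by 1.69-fold in head kidney (1.27 to 3.18). In liver, SDY replicate 1 was highest for 32 members and control replicate 1 lowest for 25. In head kidney, SDY replicate 5 was highest for 23 members, SDY replicate 2 for 9, and control replicate 2 lowest for 28. Some genes had other extremes. Psme4, the activator PA200, was highest in control replicate 5 and lowest in control replicate 3 of the intestine. Psmf1, an inhibitor of the core, was highest in SDY replicate 3 there, and psmd9, a helper in building the regulatory particle, in SDY replicate 1.

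**Figure D1:**
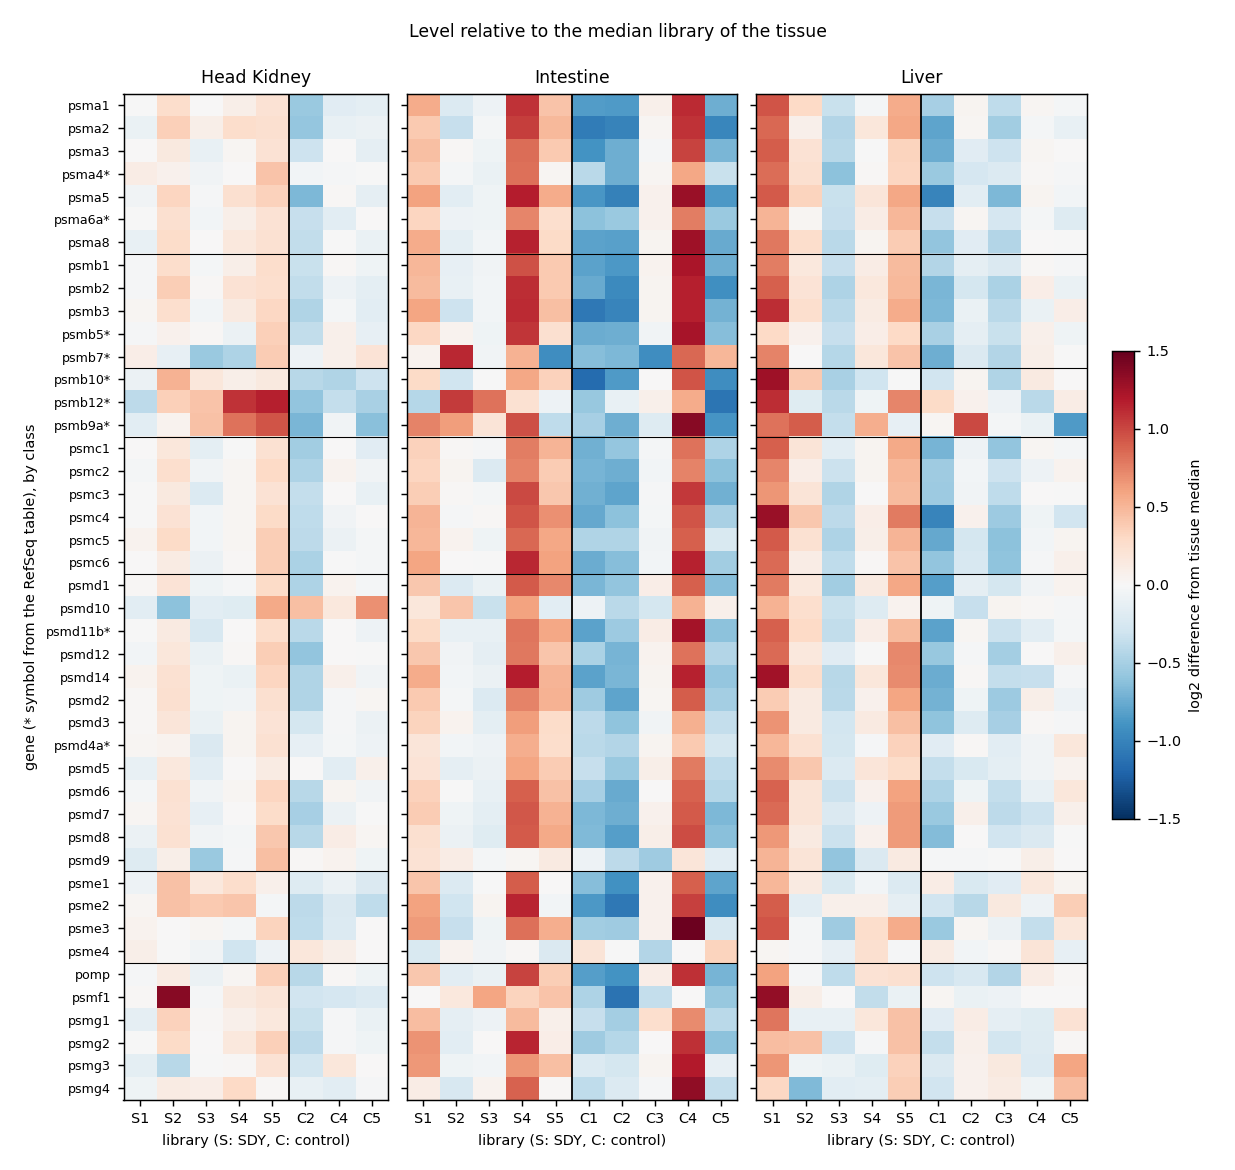
Each column is a library, each row a gene in its class, and colour gives the log2 difference of its level from the median library of the tissue (blue lower, red higher). Columns of one colour show libraries in which most genes shift together, as in intestine SDY replicate 4 and intestine control replicate 4, where the median member lay 0.91 and 0.98 above the tissue median.

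In head kidney, no member passed an adjusted p of 0.05 in edgeR's quasi-likelihood test, where 0% of all 17151 genes tested passed as higher under SDY and 0.00583% as lower. At an unadjusted p under 0.05, 10 of the 35 members were higher (5.86% of all genes) and 0 lower (5.92% of all genes). The log2 fold change, SDY over control, was above 0 for 31 of 35 members, against 53.7% of all genes, and its median was 0.25 over members and 0.023 over all genes. Groups did not overlap for 6 members, all with SDY higher, where 3.81% of all genes had SDY libraries wholly above control and 3.45% wholly below. These were psme1, psme2, psma1, psmb2, psmg2 and psmf1. In these bulk samples, a change in the number of cells of a type and a change in RNA per cell cannot be told apart.

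By class, the median log2 fold change in head kidney was 0.93 for the 3 immune beta subunits named by RefSeq, 0.41 for the alpha and 0.36 for the beta core ring members, 0.31 for the activators, 0.25 for the ATPases, 0.24 for the inhibitor and assembly genes and 0.22 for the non-ATPases. Of the 10 members at an unadjusted p under 0.05, 3 were activators and 5 were core ring members. Psme2, a subunit of the interferon-induced activator PA28, had 85.9, 114, 110, 112 and 81.9 CPM in the SDY libraries, against 63.9, 72.0 and 64.1 CPM in the control libraries. Every SDY library lay above every control, with a log2 fold change of 0.61 (SE 0.15, edgeR adjusted p = 0.404). Its partner psme1 had 102, 146, 120, 129 and 113 CPM in SDY libraries, against 93.8, 101 and 92.6 CPM in controls, with the lowest SDY library just above the highest control (log2 fold change 0.35, SE 0.13, edgeR adjusted p = 0.404). Psme3, the activator of the nucleus, had 31.1, 30.0, 30.5, 29.4 and 37.8 CPM in SDY libraries and 23, 25.9 and 30.0 CPM in controls. These groups overlapped, and its log2 fold change was 0.27 (SE 0.11). Psme4, the activator PA200, did not share the direction, at 40.3, 37.7, 36.4, 30.6 and 36.0 CPM under SDY and 42.6, 40.4 and 38.1 CPM under control (log2 fold change -0.15, SE 0.10).

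Of the immune beta subunits, psmb10 (LOC115593311), the immune counterpart of psmb7, had 54.1, 82.7, 64.4, 60.9 and 63.6 CPM in SDY head kidneys, against 43, 41.7 and 46 CPM in control head kidneys. The groups did not overlap, with a log2 fold change of 0.59 (SE 0.14, edgeR adjusted p = 0.404). Psmb9a (LOC115579015), the immune counterpart of psmb6, had 20.3, 23.6, 31.1, 40.5 and 44.3 CPM under SDY and 14.0, 21.9 and 14.5 CPM under control. One SDY library lay below the highest control (log2 fold change 0.93, SE 0.29). Psmb12 (LOC115579014), a beta subunit described in zebrafish beside psmb9a, had 5.62, 9.80, 10.3, 16.5 and 17.6 CPM under SDY and 4.83, 5.79 and 5.24 CPM under control (log2 fold change 1.18, SE 0.35). Only SDY replicate 1 lay within the control range. Psmb7 (LOC115593317), the constitutive partner of psmb10, had 44.6, 38.2, 28.1, 30.1 and 54.2 CPM under SDY and 39.3, 43.9 and 48.1 CPM under control, with overlap. The log2 ratio of psmb10 to psmb7 within a library was 0.28, 1.1, 1.18, 1.0 and 0.23 under SDY, against 0.13, -0.07 and -0.06 under control, with every SDY library above every control. Relative to the mean of the 8 core ring members, the diets overlapped for each immune subunit. On the log2 scale psmb10 was at -0.71 to -0.36 under SDY and -1.01 to -0.55 under control. Psmb9a was at -2.14 to -1.23 and -2.43 to -1.92, and psmb12 at -3.81 to -2.51 and -3.81 to -3.58. Psme2 (-0.35 to 0.34 and -0.32 to 0.01) and psme1 (0.11 to 0.47 and 0.21 to 0.56) overlapped as well. DESeq2, run as an alternative, called psme2 (adjusted p = 0.0299) and psmb10 (adjusted p = 0.0312) in head kidney, where it called 0.645% of all genes as higher.

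Of the core ring in head kidney, psma1, an alpha subunit, had 83.7, 101, 84.4, 89.5 and 97.7 CPM under SDY and 57, 74.5 and 75.8 CPM under control (log2 fold change 0.41, SE 0.12, edgeR adjusted p = 0.404). Psmb2, a beta subunit without a cutting site, had 48.9, 64.2, 50.2, 57.6 and 59.2 CPM under SDY and 38.1, 46.9 and 44.8 CPM under control (log2 fold change 0.38, SE 0.12, edgeR adjusted p = 0.404). For both genes the SDY libraries lay above all controls, with control replicate 2 the lowest library. In the regulatory particle, 1 of 6 ATPases (psmc5) and 0 of 11 non-ATPases were among the 10. Psmd10, a building helper counted with the non-ATPases, had the lowest log2 fold change, -0.53 (SE 0.24), with 9.48, 6.79, 9.45, 9.30 and 16 CPM under SDY and 14.7, 11.9 and 17.4 CPM under control. The count of 10 members at an unadjusted p under 0.05 became 2 without control replicate 2 and 6 without SDY replicate 5. With no library left out, 5.86% of all genes were higher at that level. The shares in those refits are not given here.

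**Figure D2:**
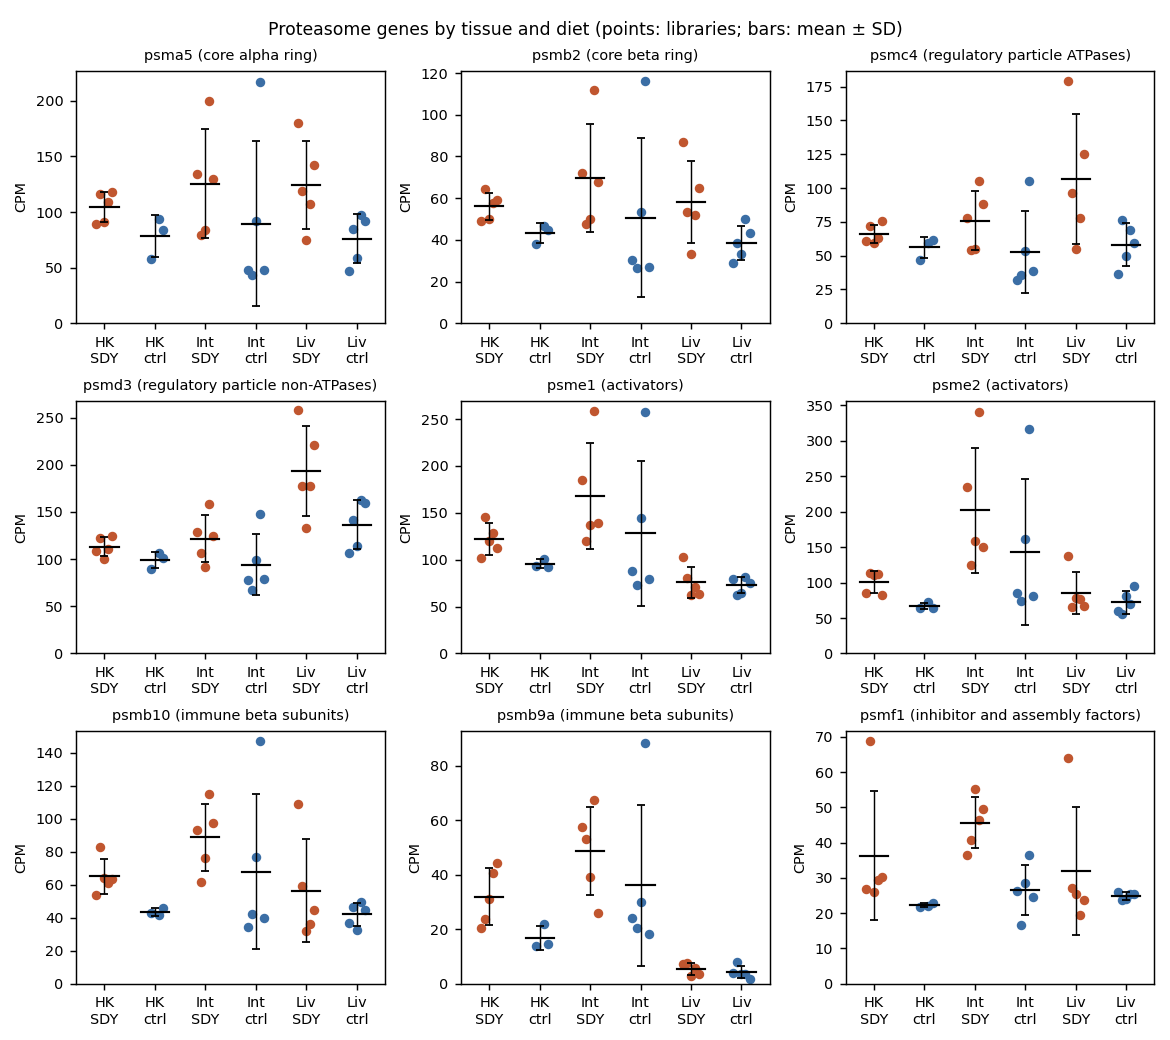
Level in CPM of 9 proteasome genes in the 6 groups, with a point for each library and bars for the mean and SD (n = 5, or 3 in head kidney control). In head kidney the SDY points of psme2 and psmb10 lie above all controls, while in intestine and liver the SDY and control points of these genes overlap.

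In intestine no member passed the adjusted threshold, where 0% of 18221 genes passed as higher and 0% as lower. At an unadjusted p under 0.05, 1 member was higher (1.62% of all genes) and 0 lower (4.88% of all genes), although 33 of 35 log2 fold changes were above 0 (48.1% of all genes) and their median was 0.39, against -0.011 over all genes. Psmf1, the inhibitor PI31, was that member. It had 36.6, 40.8, 55.2, 46.3 and 49.5 CPM in SDY intestines, against 26.4, 16.7, 28.5, 36.6 and 24.5 CPM in control intestines. The lowest SDY library stood level with the highest control to 3 digits and above it before rounding, making psmf1 the 1 member of 35 with groups that did not overlap (0.198% of all genes with SDY higher, 0.637% with SDY lower). The log2 fold change reached 0.78 (SE 0.20, edgeR adjusted p = 0.726).

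For most other members in intestine, replicate 4 of either diet was the highest library. Psma5, an alpha subunit, had 134, 79.0, 84.0, 200 and 130 CPM under SDY and 47.6, 43.4, 92, 217 and 48.3 CPM under control. Psmd3, a lid subunit of the regulatory particle, had 129, 106, 92.1, 158 and 124 CPM under SDY and 77.9, 67.3, 98.6, 148 and 79.4 CPM under control (log2 fold change 0.36, SE 0.24). In both genes control replicate 4 stood well above the other 4 controls, and SDY replicate 4 was the highest SDY library. Psmd9 had a narrower range, 22.5, 20.9, 18.9, 19.6 and 21.2 CPM under SDY and 18.2, 14.6, 13.2, 21.9 and 17.2 CPM under control (log2 fold change 0.27, SE 0.15). Psme2 and psmb10 were also high in replicate 4. Psme2 had 235, 125, 159, 341 and 150 CPM under SDY and 84.6, 73.4, 161, 316 and 80.5 CPM under control, and psmb10 had 93.3, 62.0, 76.0, 115 and 97.4 CPM under SDY and 34.2, 42.1, 76.9, 147 and 39.8 CPM under control. Psmb9a had 57.4, 53, 39.1, 67.4 and 26.1 CPM under SDY and 24, 20.4, 29.8, 88.4 and 18.2 CPM under control, and psmb12 had 10.9, 31.2, 26.6, 17.5 and 14.1 CPM under SDY and 9.91, 13.7, 15.7, 22.2 and 6.68 CPM under control. Control replicate 4 was the highest control for each of these. Psme1 had 185, 120, 137, 259 and 139 CPM under SDY and 88.2, 73.1, 144, 257 and 79.3 CPM under control, and psme3 had 17.1, 8.39, 10.3, 19.6 and 16.1 CPM under SDY and 7.37, 7.36, 11.4, 30.8 and 9.12 CPM under control, all with overlap. Psme4 was not highest in either replicate 4, with 42.7, 51.8, 48.3, 50.5 and 42.8 CPM under SDY and 57.3, 49.6, 36.7, 50.4 and 63.1 CPM under control.

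These 2 libraries also stood apart in some cell type markers. Mpx, the peroxidase of neutrophil granules, had 507, 88.4, 81.7, 2770 and 14.0 CPM in SDY intestines and 163, 86.9, 325, 1800 and 44.4 CPM in control intestines. Summed over the 9 macrophage and neutrophil markers, SDY replicate 4 had 3460 CPM and control replicate 4 had 2400 CPM, against 541 to 1170 CPM in the other 8 libraries, and no marker of the list was at 0 in every library. Mpx alone made up 2770 and 1800 CPM of the sums in SDY and control replicate 4, so these sums mostly repeat that gene. They do not show that the other markers of the list were high there. Summed T cell markers were 186 CPM in each of these 2 libraries, against 177 to 379 CPM in the other intestine libraries. Si, a brush border sugar-cutting enzyme, had 3890, 9960, 5450, 2340 and 3240 CPM under SDY and 10400, 7300, 6210, 856 and 9430 CPM under control, so replicate 4 was the lowest of each diet. The 4 brush border markers summed to 4320 CPM in SDY replicate 4 and 2180 CPM in control replicate 4, against 6590 to 15400 CPM elsewhere. Summed hepatocyte markers were 2680 CPM in SDY replicate 4 and 729 CPM in control replicate 4, against 4830 to 23000 CPM in the other 8 libraries. These intestine sums rest on apoa1b, with a log2 fold change of -3.35 in intestine over liver. The rest of that list was at -14.47 to -13.63, so the sums do not measure liver RNA in the intestine libraries. The part of these markers in the levels of the members was not tested.

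**Figure D3:**
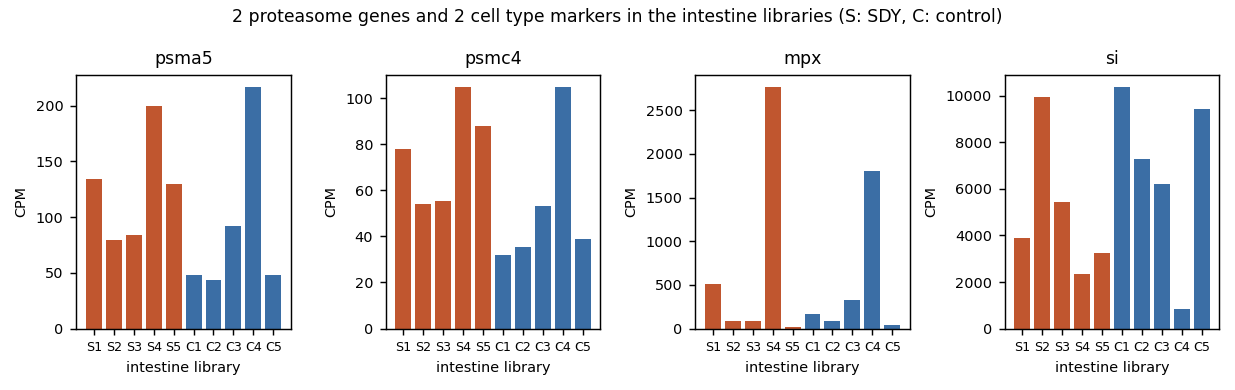
Level in CPM of psma5, psmc4, mpx and si in the 10 intestine libraries, SDY at the left and control at the right of each panel. SDY replicate 4 and control replicate 4 hold the highest psma5, psmc4 and mpx, and the lowest si of their diet.

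Intestine control replicate 4 decided the size of the diet difference. Without it, the median log2 fold change of members in intestine was 0.84 (0.23 without SDY replicate 4), and 31 of 35 had an unadjusted p under 0.05 and were higher, against 10.5% of all genes; none passed the adjusted threshold. Both replicates 4 were then left out, a choice made after seeing the data because of their macrophage and neutrophil sum, which was mostly mpx. In that fit 28 of 35 members were higher at an unadjusted p under 0.05 (6.99% of all genes) and the median was 0.65. Psma5 then had a log2 fold change of 0.88 (SE 0.29), and psmf1 of 0.92 (SE 0.19).

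In liver no member passed the adjusted threshold, where 0% of 15010 genes passed as higher and 0% as lower. In liver 19 of 35 members were higher at an unadjusted p under 0.05, against 5.68% of all genes, and 0 were lower, against 5.07% of all genes. The log2 fold change was above 0 for 33 of 35 members (49.5% of all genes), with a median of 0.49, against -0.004 over all genes. By class, 4 of 5 alpha subunits, 3 of 3 beta subunits, 4 of 6 ATPases, 7 of 11 non-ATPases and 1 of 6 inhibitor or assembly genes were among the 19, and none of the 4 activators was. SDY and control overlapped for all 35 members in liver, where 0.533% of all genes had SDY libraries wholly above control and 0.859% wholly below.

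Psmc4, an ATPase at the base of the regulatory particle, had 179, 96.4, 55.2, 77.5 and 125 CPM in SDY livers, against 36.2, 76.1, 49.4, 69.2 and 59.3 CPM in control livers (log2 fold change 0.87, SE 0.30, edgeR adjusted p = 0.382). Psmd14, the subunit that cuts ubiquitin chains off the substrate, had 136, 67.9, 42.3, 63.6 and 92.4 CPM under SDY and 33.5, 57.4, 43.9, 44.5 and 55.7 CPM under control (log2 fold change 0.77, SE 0.27, edgeR adjusted p = 0.387). Psmd5, a helper in building the base, had 29.6, 23.8, 15.4, 20.3 and 21.7 CPM under SDY and 13.8, 15.2, 16.1, 17.3 and 18.5 CPM under control (log2 fold change 0.45, SE 0.16, edgeR adjusted p = 0.387). In all of these SDY replicate 1 was the highest and SDY replicate 3 was within the control range, and control replicate 1 was the lowest control. Without SDY replicate 1, control replicate 1 or control replicate 3, the count of 19 became 4 in each case, and without SDY replicate 5 it became 5. With no library left out, 5.68% of all genes were higher at that unadjusted p. The shares in those refits are not given here.

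In liver the median log2 fold change was 0.15 for the activators and 0.40 for the immune beta subunits, against 0.51 and 0.59 for the alpha and beta core ring members, 0.56 for the ATPases, 0.50 for the non-ATPases and 0.32 for the inhibitor and assembly genes; these class medians were not tested against each other. Psme1 had 103, 80.1, 62.2, 70.8 and 63.3 CPM under SDY and 79.1, 62.4, 64.6, 81.4 and 75.3 CPM under control (log2 fold change 0.07, SE 0.16, and -0.06 without SDY replicate 1). Psme2 had 138, 66.0, 77.6, 77.4 and 66.9 CPM under SDY and 60.3, 55.1, 81.3, 69.9 and 95.3 CPM under control (log2 fold change 0.24, SE 0.23). Without SDY replicate 1, the log2 fold change of psme2 was 0.00 and that of psmb10 0.05. Psme3 had 45, 22.7, 15.8, 27.8 and 34.1 CPM under SDY and 15.5, 23.5, 21.7, 17.9 and 26 CPM under control (log2 fold change 0.47, SE 0.25). Psme4 had 30.0, 29, 26.9, 34.8 and 29.2 CPM under SDY and 32.2, 28.5, 29.7, 33.7 and 26.9 CPM under control (log2 fold change -0.01, SE 0.11). The diets overlapped for all 4 activators. Psmb9a had 7.08, 7.61, 2.87, 5.81 and 3.47 CPM under SDY and 3.91, 8.07, 3.71, 3.53 and 1.89 CPM under control, and psmb12 had 5.56, 1.99, 1.64, 2.19 and 4.18 CPM under SDY and 2.93, 2.46, 2.17, 1.63 and 2.56 CPM under control. The log2 fold changes of psmb10, psmb12 and psmb9a were 0.42 (SE 0.30), 0.40 (SE 0.35) and 0.34 (SE 0.38), where psmb10 reached 109 CPM in SDY replicate 1, with 32 to 59.3 CPM in the remaining SDY livers, against 32.7 to 49.5 CPM in control livers.

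**Figure D4:**
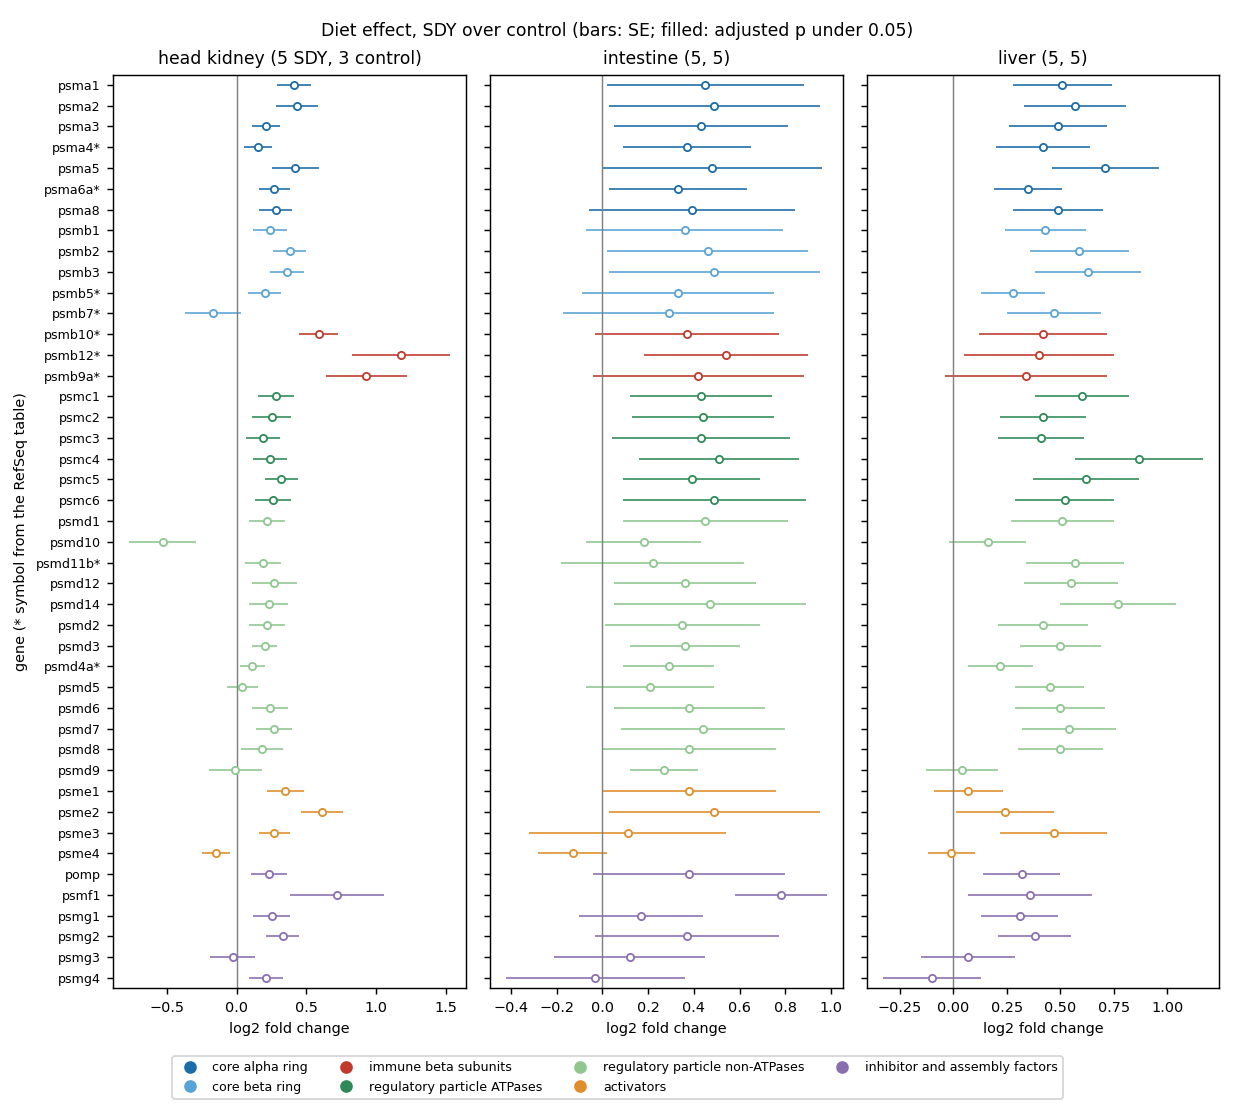
Log2 fold change of each gene, SDY over control, with its SE, in head kidney, intestine and liver, coloured by class; each panel has its own axis and a filled point would mark an adjusted p under 0.05. No point is filled: the medians of the 35 members are 0.25 in head kidney, 0.39 in intestine and 0.49 in liver, and the widest SEs are in intestine.

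Averaged over the 3 tissues in 1 fit, no member passed the adjusted threshold, where 0.00985% of 20296 genes passed as higher and 0.0148% as lower. This fit took all libraries as independent. The labels do not say whether tissues came from the same fish, and if they did, the SEs and p-values of the average may be too small. Before adjustment, 21 of 35 had p under 0.05 and were higher (7.32% of all genes) and 0 lower (6.66% of all genes). The log2 fold change was above 0 for 33 members (53.6% of all genes), and the median was 0.37, against 0.021 over all genes. Psmf1 had the smallest p, with a log2 fold change of 0.62 (SE 0.17, edgeR adjusted p = 0.114). Psmd3 followed at 0.36 (SE 0.12, edgeR adjusted p = 0.186) and psmc4 at 0.55 (SE 0.18, edgeR adjusted p = 0.189). Among the genes named by RefSeq, psmb12 had 0.71 (SE 0.22, edgeR adjusted p = 0.152).

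The refits of the average also took all libraries as independent, with the same limit. The averaged result turned on intestine control replicate 4. Without that library, 26 of 35 members passed the adjusted threshold as higher under SDY, against 2.50% of all genes. All 8 core ring members, all 6 ATPases, 8 of the non-ATPases, psme2, psmf1, psmg2 and pomp were among them; psma5 had a log2 fold change of 0.75 (SE 0.17, edgeR adjusted p = 0.0312). In the same fit psmd10 was at 0.00 (SE 0.12) and psme4 at -0.10 (SE 0.07). With intestine SDY replicate 4 left out as well, 9 members passed (0.793% of all genes), and psma5 had 0.67 (SE 0.16, edgeR adjusted p = 0.0499). With any other single library left out, no member passed. DESeq2 with all 28 libraries called 1 member, psmf1 (adjusted p = 0.0303), where it called 1.0% of all genes as higher.

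The diet differences of the tissues were also compared with each other. No member passed for head kidney minus intestine (0% of all genes higher, 0.00493% lower), head kidney minus liver (0.00493% higher, 0.00493% lower) or liver minus intestine (0.00985% higher, 0% lower). Psmd10 was the 1 member at an unadjusted p under 0.05 in any of these, with the first; its diet difference in head kidney minus that in intestine was -0.70 on the log2 scale (SE 0.34, edgeR adjusted p = 0.708). Of all genes at that level, 5.52% were higher and 1.52% lower for head kidney minus intestine, 3.97% and 2.28% for head kidney minus liver, and 3.38% and 2.45% for liver minus intestine. The difference for psmc4 between head kidney and liver was -0.64 (SE 0.46). A p that misses the threshold does not show that the diet differences were alike.

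Psmf1 had 1 library far above the rest in head kidney and 1 in liver. It had 26.9, 68.9, 26.1, 29.4 and 30.3 CPM in SDY head kidneys, against 21.7, 22.1 and 22.9 CPM in control head kidneys. In SDY livers it had 63.9, 27, 25.4, 19.6 and 23.6 CPM, against 26, 23.6, 24, 25.4 and 25.5 CPM in control livers. The same libraries held the highest interferon response sums of their tissue over 10 listed genes: 1560 CPM in SDY head kidney replicate 2, against 360 to 691 CPM in the remaining SDY head kidneys and 301 to 410 CPM in the controls, and 1370 CPM in SDY liver replicate 1, against 250 to 608 CPM in the other SDY livers and 324 to 371 CPM in the controls. This comparison was chosen after the values were seen, and the part of the interferon genes in psmf1 was not tested.

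The interferon list itself, genes that cells switch on when they sense a virus or interferon, had no gene past the adjusted threshold of edgeR's quasi-likelihood test in any tissue. At an unadjusted p under 0.05, 1 of 9 genes tested was higher under SDY in head kidney, 5 of 9 in intestine and 4 of 9 in liver, with 0 lower in each; of all genes, 5.86%, 1.62% and 5.68% were higher. Irf1, a transcription factor of the interferon response, had 96.4, 179, 250, 323 and 114 CPM in SDY head kidneys and 95.0, 99.2 and 75.8 CPM in controls (log2 fold change 1.11, SE 0.41). In intestine the smallest p was that of ifih1, a sensor of viral RNA, with 69.9, 97.0, 133, 70.2 and 110 CPM under SDY and 85.5, 36.4, 51.6, 62.6 and 50.9 CPM under control (log2 fold change 0.73, SE 0.25). In liver it was irf7, a transcription factor of interferon genes, with 31, 35.0, 19.3, 106 and 49.0 CPM under SDY and 9.89, 10.9, 21.2, 31.5 and 9.03 CPM under control (log2 fold change 1.53, SE 0.47). Next by p came cmpk2 and dhx58 in head kidney, with log2 fold changes of 1.95 and 2.28, stat1a and cmpk2 in intestine, with 0.63 and 1.24, and dhx58 and cmpk2 in liver, with 1.54 and 1.52. In head kidney the values of cmpk2 and dhx58 rest on SDY replicate 2, without which they were 0.71 and 0.57. In liver, cmpk2 was at 0.71 and dhx58 at 0.65 without SDY replicate 1.

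Of 6 class I antigen presentation genes tested, 2 were higher at an unadjusted p under 0.05 in head kidney, 0 in intestine and 0 in liver, where 1 was lower; the shares of all genes were 5.86% higher in head kidney, 1.62% higher in intestine, and 5.68% higher and 5.07% lower in liver. None passed the adjusted threshold in edgeR's quasi-likelihood test. Tap1 (LOC115566623), which carries peptides cut by the proteasome into the endoplasmic reticulum, had 10.6, 17.5, 21.5, 23.2 and 13 CPM in SDY head kidneys and 7.01, 9.62 and 9.04 CPM in controls (log2 fold change 1.01, SE 0.28, edgeR adjusted p = 0.404, DESeq2 adjusted p = 0.0451). Tapbp, which loads class I molecules, had 57.8, 66.9, 42.7, 99.9 and 50.1 CPM under SDY and 35.7, 33.7 and 34.7 CPM under control there (log2 fold change 0.88, SE 0.26, edgeR adjusted p = 0.404). The SDY libraries lay above all controls for both. In liver, nlrc5, which switches on class I genes in mammals, had 20.4, 9.27, 6.57, 7.67 and 5.20 CPM under SDY and 11.5, 50.9, 11.3, 40.9 and 56.7 CPM under control, 1 SDY library overlapping the controls (log2 fold change -1.80, SE 0.53, edgeR adjusted p = 0.343; -2.24 to -1.54 with a library left out). The next genes of the list by p were nlrc5 in head kidney, with a log2 fold change of 0.73, tapbp, canx and nlrc5 in intestine, with 0.33, 0.26 and 0.29, and pdia3 and tapbpl in liver, with 0.35 and -0.35.

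The wider ubiquitin and proteasome list of 34 genes, which shares no member with the 35, had 33 genes tested and 0 past the adjusted threshold in any tissue in edgeR's fits of single tissues. At an unadjusted p under 0.05, 5 were higher and 2 lower in head kidney, 0 and 0 in intestine, and 6 and 0 in liver, where the shares of all genes were 5.86% and 5.92%, 1.62% and 4.88%, and 5.68% and 5.07%. The list's median log2 fold changes were 0.06, 0.16 and 0.18 in head kidney, intestine and liver, against 0.023, -0.011 and -0.004 over all genes. In head kidney, ubxn4 and sem1 had log2 fold changes of -0.20 and 0.25, and in intestine the smallest p values were those of ddi2, adrm1 and ecpas, with 0.27, 0.42 and 0.37. In liver the list's smallest p values were those of akirin2, nfe2l1 and zfand5. Akirin2 (LOC115574614), which brings proteasomes into the nucleus in human cells, had 17.9, 20, 14.6, 17.1 and 17.6 CPM under SDY and 10.4, 12.2, 11.1, 12.6 and 14.2 CPM under control (log2 fold change 0.53, SE 0.12, edgeR adjusted p = 0.343). It passed with DESeq2 (adjusted p = 0.0483) and in edgeR's joint fit of the 28 libraries (adjusted p = 0.0281). Nfe2l1, the transcription factor that switches on proteasome genes when the proteasome is overloaded in mammals, had 47.9, 50.9, 43.5, 83.1 and 39.5 CPM under SDY and 28.1, 31.6, 26.5, 40.2 and 35.2 CPM under control (log2 fold change 0.71, SE 0.20, edgeR adjusted p = 0.343). Zfand5, which raises proteasome activity in mammals, had 53.2, 72.7, 29.5, 54.5 and 83.0 CPM under SDY and 33.4, 25.6, 36.4, 39.3 and 29.3 CPM under control (log2 fold change 0.83, SE 0.23, edgeR adjusted p = 0.343). Akirin2 had no overlap between diets, while nfe2l1 and zfand5 each had 1 SDY library within the control range. In head kidney and intestine, akirin2 was at 0.06 and 0.06, nfe2l1 at 0.28 and -0.11, and zfand5 at -0.35 (SE 0.15) and -0.06. A second nfe2l1 gene of the list, nfe2l1a (LOC115576354), was at 0.30 (SE 0.33) in liver. It was at -0.57 (SE 0.35) in head kidney and -0.29 (SE 0.23) in intestine.

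Summed markers of blood cells also had different ranges under the diets. The 7 erythroid markers summed to 830 to 2660 CPM in SDY head kidneys and 2050 to 3490 CPM in control head kidneys, and to 142 to 245 CPM in SDY livers and 174 to 487 CPM in control livers, with 0 genes at 0 in every library. At an unadjusted p under 0.05, 3 of 7 were lower in head kidney (5.92% of all genes) and 5 of 6 tested in liver (5.07% of all genes). The 9 macrophage and neutrophil markers summed to 1920 to 3280 CPM in SDY head kidneys and 3140 to 3500 CPM in control head kidneys, and the 9 T cell markers to 225 to 460 CPM and 177 to 294 CPM in the same groups. The part of these markers in the diet values of the members was not tested.

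Between tissues, activators and regulatory particle members passed the test in places. In intestine over liver, with both diets averaged, 3 of 35 members passed as higher in intestine (43.4% of all genes) and 14 as lower (35.4% of all genes). In head kidney over liver, 2 passed as higher (37.5% of all genes) and 12 as lower (37.5% of all genes), and in head kidney over intestine 2 passed as higher (35% of all genes) and 3 as lower (38.5% of all genes). None of the 8 core ring members passed in any of these comparisons under TMM. Of the 4 core ring genes named by RefSeq, psma4, psma6a, psmb5 and psmb7 had log2 fold changes of -0.62, -0.98, -0.66 and -2.0 in intestine over liver, all past the test under TMM, but 0.64, 0.28, 0.62 and -0.77 with plain totals. In head kidney over liver they had -0.70, -1.09, -0.69 and -0.79, again all past the test under TMM, but 0.81, 0.42, 0.82 and 0.73 with plain totals. These counts depend on the scaling: with plain library totals 34 members passed as higher in intestine than in liver, 35 as higher in head kidney than in liver and 0 as lower in either, while the median of all genes shifted to 1.38 and 1.502 (log2). Of all 20296 genes, 17446 and 17347 passed with plain totals in these comparisons, counting both directions. Relative to that median, the members' median was -0.49 in intestine over liver with TMM and -0.42 with plain totals, and -0.26 and -0.21 in head kidney over liver.

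Psme2 had 73.4 to 341 CPM (median 154) in 10 intestine libraries, against 55.1 to 138 CPM (median 73.7) in 10 liver libraries, with a log2 fold change of 1.11 (SE 0.24, edgeR adjusted p = 0.000138). Psme1 was higher in intestine than in liver as well, at 73.1 to 259 CPM (median 138) against 62.2 to 103 CPM (median 73.0), a log2 fold change of 0.98 (SE 0.19, edgeR adjusted p = 4.02e-05). Psme4 had 36.7 to 63.1 CPM (median 50) in intestine, against 26.9 to 34.8 CPM (median 29.4) in liver (log2 fold change 0.71, SE 0.08, edgeR adjusted p = 2.08e-08); the tissues did not overlap. Psme3 went the other way, with 7.36 to 30.8 CPM (median 10.9) in intestine and 15.5 to 45 CPM (median 23.1) in liver, a log2 fold change of -0.84 (SE 0.23, edgeR adjusted p = 0.00183) under TMM that became 0.43 with plain totals. The log2 ratio of psme2 to psme3 within a library was 3.07 to 4.09 in intestine, against 0.96 to 2.26 in liver. Scaling enters this ratio only through the 0.5 added to CPM.

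In head kidney over intestine, psme3 was higher at 23 to 37.8 CPM (median 30.0), with a log2 fold change of 1.07 (SE 0.24, edgeR adjusted p = 0.000348), and psmd10 was higher at 6.79 to 17.4 CPM (median 10.7) against 4.78 to 10.1 CPM (median 6.47), with 0.82 (SE 0.17, edgeR adjusted p = 0.000131). Psme2 was lower in head kidney, at 63.9 to 114 CPM (median 83.9), with a log2 fold change of -1.05 (SE 0.26, edgeR adjusted p = 0.000774). Psme4 and psmd5 were lower too, each at -0.37 (SE 0.09 and 0.16), but with plain totals psme4 was at -0.07 (edgeR adjusted p = 0.529). With plain totals 5 members passed as higher and 1 as lower in head kidney over intestine, where 15125 of all genes passed, counting both directions. In head kidney over liver, psme1 was higher by 0.54 (SE 0.20, edgeR adjusted p = 0.0171) and psme4 by 0.34 (SE 0.09, edgeR adjusted p = 0.00106) on the log2 scale. Psmg4, an assembly helper of the core, had 0.36 (SE 0.22) and did not pass under TMM with all 28 libraries (edgeR adjusted p = 0.138). It passed without intestine control replicate 4 (0.36, edgeR adjusted p = 0.0381), without both intestine replicates 4 (0.36, edgeR adjusted p = 0.0147) and with plain totals (1.87, edgeR adjusted p = 1.99e-07).

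Among the immune beta subunits, psmb9a and psmb12 had the largest log2 fold changes against liver of the 44 proteasome genes tested. Psmb9a had 18.2 to 88.4 CPM (median 34.5) in intestine and 14.0 to 44.3 CPM (median 22.8) in head kidney, against 1.89 to 8.07 CPM (median 3.81) in liver. The fitted log2 difference was 3.13 (SE 0.31, edgeR adjusted p = 1.11e-09) for intestine over liver, 2.27 (SE 0.31, edgeR adjusted p = 3.77e-07) for head kidney over liver and -0.86 (SE 0.30, edgeR adjusted p = 0.0136) for head kidney over intestine. This last call was lost with plain totals (-0.62, edgeR adjusted p = 0.101) and with both intestine replicates 4 left out (-0.46, edgeR adjusted p = 0.0883). Psmb12 had the same order, at 6.68 to 31.2, 4.83 to 17.6 and 1.63 to 5.56 CPM in intestine, head kidney and liver, with a log2 fold change of 2.60 (SE 0.27, edgeR adjusted p = 2.52e-09) for intestine over liver. Psmb10 had 0.68 (SE 0.23, edgeR adjusted p = 0.0103) for intestine over liver, which became 0.37 (edgeR adjusted p = 0.082) with both intestine replicates 4 left out. Its constitutive partner psmb7 had 8.14 to 35.7 CPM (median 16.1) in intestine, against 42.6 to 120 CPM (median 71.3) in liver, a log2 fold change of -2.0 (SE 0.25, edgeR adjusted p = 7.13e-08) with no overlap.

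Within a library, scaling enters a log2 ratio only through the 0.5 added to CPM. That of psmb10 to psmb7 was 0.79 to 3.49 in intestine and -0.07 to 1.18 in head kidney, against -1.13 to -0.14 in liver. The order was intestine, head kidney, liver, with overlap between intestine and head kidney and none with liver. Psmb11a and psmb11b, named after the thymus subunit of mammals, did not pass the filter: psmb11a summed to 5 counts in SDY and 0 in control head kidneys, 0 and 1 in intestines, and 2 and 1 in livers, and psmb11b to 6 counts in 1 control head kidney. T cell markers were also lowest in liver, at 30.7 to 67.4 CPM in summed level, against 177 to 379 CPM in intestine and 177 to 460 CPM in head kidney. The other immune lists also had their lowest sums in liver, but their intestine and liver ranges overlapped. For intestine over liver, 6 of 7 B cell and 8 of 9 macrophage and neutrophil markers passed as higher (43.4% of all genes). All 9 T cell markers did too, and 1 B cell marker passed as lower (35.4% of all genes). B cell markers summed to 34.1 to 117 CPM in intestine, 550 to 918 CPM in head kidney and 29.2 to 64.1 CPM in liver. Macrophage and neutrophil markers summed to 541 to 3460 CPM in intestine, 1920 to 3500 CPM in head kidney and 487 to 1160 CPM in liver. The part of immune cells in the immune subunits was not tested.

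For the regulatory particle, the direction against liver depended on the scaling. Of 17 regulatory particle members, with the helpers psmd5, psmd9 and psmd10 counted, 12 passed as lower in intestine than in liver under TMM (35.4% of all genes). In head kidney over liver 12 passed as lower (37.5% of all genes), and none passed as lower in either with plain totals. Psmc5, an ATPase, had 39.2 to 100 CPM (median 53.7) in intestine and 65.8 to 212 CPM (median 112) in liver, with a log2 fold change of -0.84 (SE 0.18, edgeR adjusted p = 0.000153) under TMM and 0.43 with plain totals. Psmd8, a lid subunit, had 41.9 to 74.4 CPM (median 56.2) in head kidney and 55 to 137 CPM (median 86.8) in liver, with -0.65 (SE 0.22, edgeR adjusted p = 0.0102) under TMM and 0.86 with plain totals. Psmd2, a scaffold that docks ubiquitin receptors, had 118 to 191 CPM (median 161) in head kidney and 153 to 377 CPM (median 250) in liver, with -0.64 (SE 0.20, edgeR adjusted p = 0.00601) under TMM and 0.88 with plain totals. The ratio of the regulatory particle to the core within a library depends on scaling only through the 0.5 added to CPM. Over the 17 and 8 members its mean log2 difference was -1.09 to -0.42 in intestine and -0.78 to -0.49 in head kidney, against -0.38 to -0.16 in liver. This separation was not kept when the genes named by RefSeq were included, a choice made after seeing the data: over 19 regulatory particle and 12 core genes the ratio was -0.51 to -0.04 in intestine and -0.32 to -0.17 in head kidney, against -0.26 to -0.11 in liver, with overlap.

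**Figure D5:**
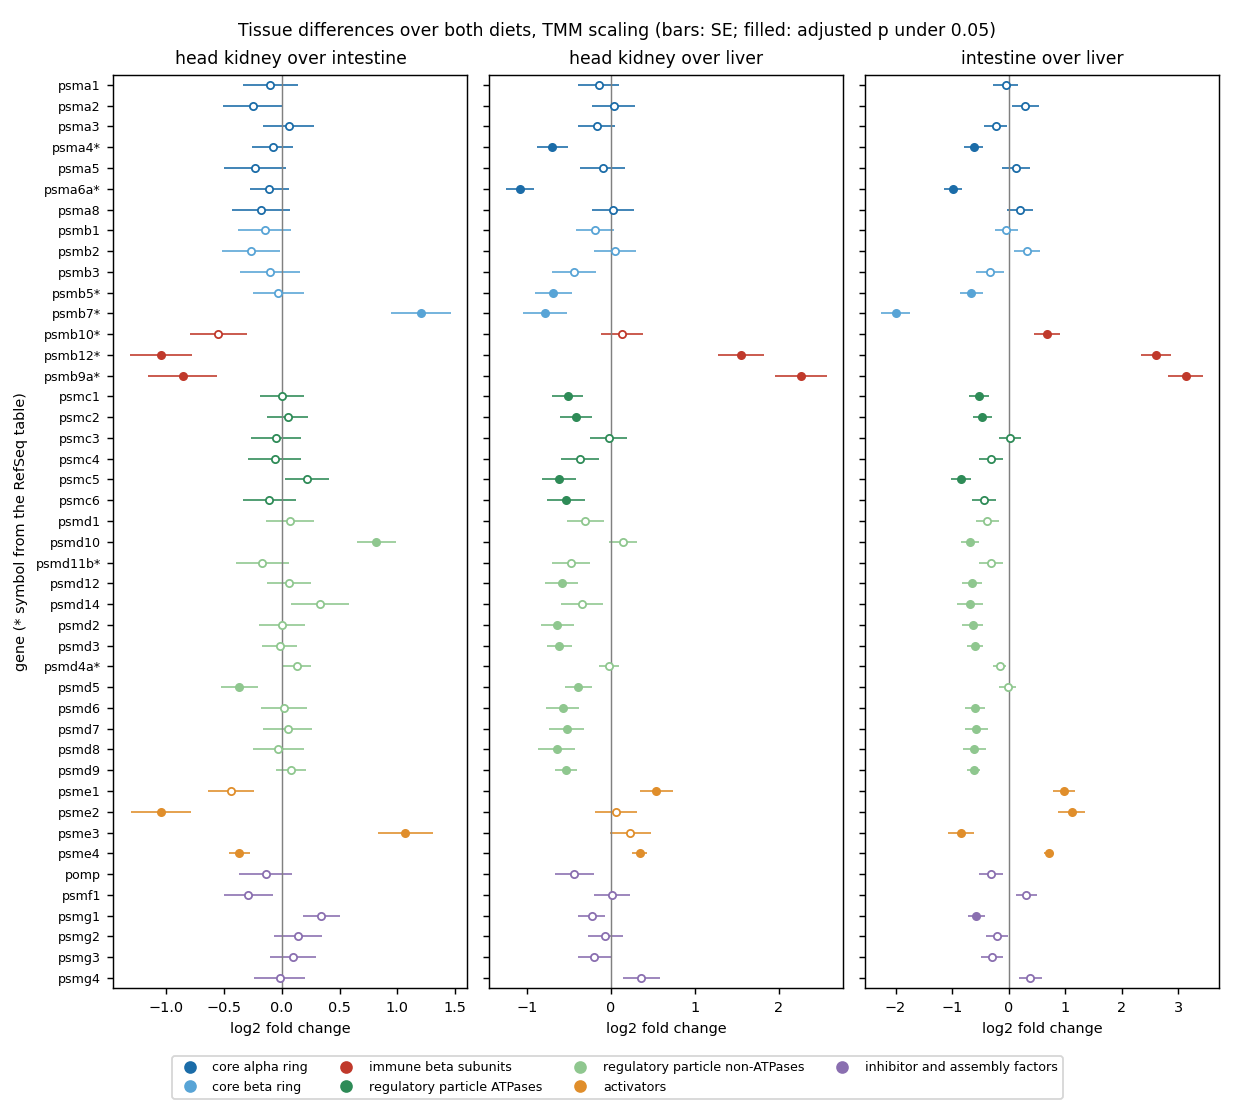
Log2 fold change of each gene between tissues under TMM scaling, over both diets, with its SE and coloured by class; each panel has its own axis and filled points passed an adjusted p of 0.05. Psmb9a and psmb12 lie furthest to the right and psmb7 furthest to the left in intestine over liver, while the 8 core ring members are unfilled and the 4 core genes named by RefSeq are filled against liver; with plain library totals none of the 35 members passed as lower against liver, and of these 4 core genes psmb7 alone did, in intestine.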

How the data were processed

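Per the labels' protocols, poly(A) RNA was made into libraries with a directional kit. Trim Galore 0.4.4, FastQC, HISAT2 2.1.0 and DESeq2 are named, per the submitters' processing notes. The deposited values are whole-number counts per gene; per the file headers, the authors made them with featureCounts 1.5.3 on assembly fSpaAur1.1, from mRNA features summed by gene, counting a read for every gene it overlaps and setting no strand or paired-read option. All value columns were mapped to samples (0 were not).

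From the 28 libraries, genes were filtered with filterByExpr, scaled with TMM and tested with edgeR 4.0.16 (quasi-likelihood F test, Benjamini-Hochberg adjustment over all genes tested, threshold 0.05; limma 3.58.1, R 4.3.3), after the method was tested on simulated data. Diet was tested in each tissue alone; the averaged contrast, the differences between tissues and the tissue contrasts came from 1 fit of the 28 libraries, over 6 group means. The SE is the absolute log2 fold change divided by the square root of F. Log2 ratios within a library used CPM plus 0.5. DESeq2 1.42.0, other scalings, no filter, a replicate block, each library left out in turn and the return of the left-out controls were tried. Over 53 pairs of libraries of 1 group, the smallest chi-square per gene was 19.1 (genes with a summed count of at least 10), so none repeats another within sampling noise.

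The members and gene lists were chosen with earlier results of these data known. Genes are described by this rule: per tissue and for the average, the 3 members with the smallest diet p; all immune beta subunits and activators; per tissue pair, the 2 members highest and the 2 lowest by fold change; and per list and tissue, the 3 smallest p. A gene that this rule names is not reported here, though the list counts include it. Other genes named were chosen after their values were seen. Names of LOC genes came from the RefSeq gene table of the same assembly.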

Additional observations from a re-analysis of the deposited data

Results flagged for a closer look

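In 10 of 200 groups of 4 to 10 libraries, 1 library lay far from the others by Dixon's criterion, which chance meets in about 1 in 20 groups. In SDY head kidneys, replicate 2 was highest for psmf1 at 68.9 CPM and for dhx58, a sensor of viral RNA, at 272 CPM, and replicate 5 was highest for psme3 at 37.8 CPM. In SDY livers, replicate 1 was highest for psmf1 at 63.9 CPM and for psme2 at 138 CPM. Replicate 3 of the SDY livers was lowest for canx and pdia3, which help proteins fold in the endoplasmic reticulum, at 553 CPM and 957 CPM. In control livers, psmd10 was lowest in replicate 2 at 8.56 CPM and psmd9 highest in replicate 4 at 29.9 CPM. In control intestines, replicate 4 was highest for psmg4 at 21.7 CPM.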

How the results depend on the processing

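Of the summary results recomputed under the alternatives, 1001 values stayed within 1.5 times (counts) or the spread between replicates (medians), and 40 moved. This tally does not measure how stable the results are. A count of 0 that stayed at 0 was scored as unmoved. So was the intestine diet median, which went from 0.39 to 0.65 with both intestine replicates 4 left out. The rule also did not check the sign of a median. The members' median in head kidney over intestine was -0.02, but 0.22 with plain totals and 0.27 with both intestine replicates 4 left out. The median difference in diet effect, head kidney minus intestine, was -0.15, but 0.01 with plain totals. In no pair of groups did all same-numbered libraries deviate together, so the numbers were not taken as pairing samples. Between diets, correlations were above 0.1 in 2 of 3 pairs in head kidney, 2 of 5 in intestine and 0 of 5 in liver. The highest in intestine was 0.51, against at most 0.37 for other numbers there. Between tissues under SDY, 0 of 5 pairs passed 0.1 for head kidney and intestine, and 1 of 5 for head kidney and liver. For intestine and liver 2 of 5 did. Under control these counts were 0 of 3, 1 of 3 and 0 of 5, in the same order. With a replicate block, 9 members in intestine and 7 in liver were higher at an unadjusted p under 0.05. DESeq2 called 1 member higher in head kidney and 1 in the average, and had 1 lower at an unadjusted p under 0.05 in head kidney. The count higher at an unadjusted p under 0.05 in head kidney was 26 with plain library totals (log2 median of all genes 0.143), 2 with control replicates 1 and 3 returned and 1 in the joint fit. In liver it was 7 in the joint fit. In the main fits, 5.86% of all genes in head kidney, 1.62% in intestine and 5.68% in liver were higher at that level. The shares of all genes under the replicate block, plain totals, returned controls and joint fit are not given here. With both intestine replicates 4 left out, the count higher at an unadjusted p under 0.05 was 28 in intestine (6.99% of all genes). In the average, 9 members passed (0.793% of all genes). In head kidney over intestine 9 passed as higher, and in intestine over liver 25 passed as lower. Of all 20174 genes, 14953 and 16012 passed in these tissue contrasts, counting both directions.

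With each library left out in turn, the count higher at an unadjusted p under 0.05 was 2 to 13 in head kidney. It was 1 to 31 in intestine, 4 to 26 in liver and 6 to 30 in the average. The average had 6 without head kidney control replicate 2, 12 without intestine SDY replicate 4 and 13 without liver SDY replicate 1. The count lower was 0 to 1 in head kidney and in the average. With no library left out, 5.86%, 1.62%, 5.68% and 7.32% of all genes were higher at that level, in the same order. Members passing in the average ranged over 0 to 26. The median difference in diet effect, head kidney minus intestine, ranged over -0.56 to 0.01. In head kidney over intestine, 2 to 6 members were higher and 2 to 5 lower. In head kidney over liver 7 to 13 were lower, with 7 without head kidney control replicate 2. In intestine over liver 13 to 22 were lower. With no library left out, 35% of all genes were higher and 38.5% lower in head kidney over intestine. The shares lower were 37.5% in head kidney over liver and 35.4% in intestine over liver. With plain totals, 5 members were higher and 1 lower in head kidney over intestine, 35 and 0 in head kidney over liver (median 1.29), and 34 and 0 in intestine over liver (median 0.96). Of all genes, 15125, 17347 and 17446 passed in these contrasts, counting both directions.

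Directions turned for psmd8 (0.86) and psmd2 (0.88) in head kidney over liver and for psme3 (0.43) and psmc5 (0.43) in intestine over liver with plain totals. The diet difference of psme4 in liver was 0.00 with DESeq2, 0.00 with no filter, 0.01 with plain totals and -0.06 to 0.04 with a library left out. That of psme3 in intestine ranged over -0.04 to 0.70 and that of psme1 in liver over -0.06 to 0.13. Beyond what the left-out libraries show, the cause of these shifts was not tested. Head kidney control rests on 3 libraries, and the intestine results on whether replicate 4 of either diet is kept.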
